A study of Mus musculus with 24 samples.

Results

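Across 13 Affymetrix expression arrays of blood progenitors with normal or reduced Dnmt1, 10 genes of the germ line were followed: Slc25a31, Syce1, Tex12, Stag3, Rec8, Ddx4, Dazl, Sycp1, Sycp3 and Mael. They are 10 of the 18194 genes measured, and 11 of the 34958 probe sets that name a single gene. Dazl has 2 probe sets and every other gene 1. The genes were chosen by the log2 intensities of hypomorph against wildtype arrays in HSC and MP, so their differences between genotypes below describe the choice and carry no test. The comparisons between wildtype cell types hold no hypomorph array and were tested, but they share wildtype arrays with the contrasts of the choice, so their p-values are not fully independent of it.

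From the bone marrow of 129ola mice, 8 to 12 weeks of age, 3 populations had been sorted: haematopoietic stem cells (HSC), progenitors of the myeloid lineage (MP) and progenitors of B cells. Hypomorph mice carried Dnmt1-/chip, a null allele over the hypomorphic chip allele, and wildtype mice carried Dnmt1+/+. The groups were wildtype HSC (2 arrays), hypomorph HSC (3 arrays), wildtype MP (3 arrays), hypomorph MP (3 arrays) and wildtype B cell progenitors (2 arrays). The labels name no restriction of the alleles to a cell type and no agent given to the mice. Whether each array represents its own animal is not said in the labels. The p-values thus measure the spread between arrays only, which may in part be technical. Xist, Eif2s3y and Kdm5d, genes linked to sex, averaged 8.89 and 5.92 in wildtype HSC and 9.42, 8.92 and 5.88 in wildtype MP. They averaged 8.14, 5.85 and 8.72 in hypomorph MP, 8.44, 7.64 and 8.90 in hypomorph HSC, and 7.12 and 6.30 in B progenitors. Arrays of a group thus differed in these genes, and the part of sex in the results was not tested. A mean over these genes does not show which of them differed, so it does not give the sex behind an array.

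Dnmt1 copies methylation of cytosine in CpG dinucleotides onto the new DNA strand at replication. In somatic cells many genes of meiosis and of the germ cell carry dense methylation over CpG-rich promoters and are silent. A further layer of repression at such promoters is the Polycomb complex that holds E2f6, Max and Mga, which reads E2F and E-box motifs. The genes described here build the synaptonemal complex that holds paired chromosomes together in meiosis (Syce1, Tex12, Sycp1, Sycp3), the meiotic form of cohesin (Stag3, Rec8), the RNA machinery of germ cells (Ddx4, Dazl, Mael), and a mitochondrial carrier of ADP and ATP in the testis (Slc25a31).

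The values are log2 intensities, and array medians lay between 4.56 and 4.74. The main Dnmt1 probe set read 11.30 to 11.80 on wildtype HSC and MP arrays, and 12.24 and 12.40 on B progenitor arrays. It read 8.01 to 9.31 on hypomorph arrays, so the genotypes did not overlap. Another Dnmt1 probe set averaged 10.19 in wildtype and 9.43 in hypomorph HSC, and 10.97 and 9.31 in MP. A further one averaged 10.01 and 7.50 in HSC, and 9.81 and 6.65 in MP. The genotypes did not overlap on these either, but the size of the fall depended on the probe set. Markers of B progenitors averaged 11 on the B progenitor arrays and 4.63 to 5.28 elsewhere. Stem cell markers averaged 9.15 to 9.70 in HSC and at most 7.12 elsewhere, and myeloid markers 11.48 to 11.74 in MP and at most 8.69 elsewhere, so each sort bears its defining markers. T and NK cell markers stayed between 4.38 and 4.94 on all arrays, and macrophage and stroma markers between 3.75 and 5.42. No detection calls were used, so it is not known whether a dim gene lay above background. A value is called dim here when it lies under 4.64, the median of all values. In sorted cells an average cannot tell apart a few cells with much of a transcript and many cells with a little.

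The sequences before the start sites of 5 genes are shown because methylation of such sequence is the mark that Dnmt1 maintains, and because the genes differ in response. Slc25a31, Syce1 and Tex12 were higher in hypomorph HSC and in hypomorph MP, while Sycp1 and Sycp3, partners of Syce1 and Tex12 in the same structure, stayed dim. Each is the stretch of 250 bases before the RefSeq start in GRCm38.p6, read along the gene's strand, with CpG dinucleotides in capitals. The regions are chr3:40708621-40708870 (plus strand), chr7:140787855-140788104 (minus strand), chr9:50561269-50561518 (minus strand), chr3:102936101-102936350 (minus strand) and chr10:88459337-88459586 (plus strand).
Slc25a31: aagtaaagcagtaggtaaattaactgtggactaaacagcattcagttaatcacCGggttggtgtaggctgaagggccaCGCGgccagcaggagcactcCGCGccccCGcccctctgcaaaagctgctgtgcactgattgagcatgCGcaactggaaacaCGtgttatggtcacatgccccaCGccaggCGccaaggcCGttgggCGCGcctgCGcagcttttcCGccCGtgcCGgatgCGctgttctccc
Syce1: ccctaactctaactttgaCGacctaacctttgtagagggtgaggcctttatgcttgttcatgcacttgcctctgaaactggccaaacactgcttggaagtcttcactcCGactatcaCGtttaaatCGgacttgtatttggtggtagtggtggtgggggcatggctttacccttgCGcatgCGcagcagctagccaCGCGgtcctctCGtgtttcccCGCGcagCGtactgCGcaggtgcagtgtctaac
Tex12: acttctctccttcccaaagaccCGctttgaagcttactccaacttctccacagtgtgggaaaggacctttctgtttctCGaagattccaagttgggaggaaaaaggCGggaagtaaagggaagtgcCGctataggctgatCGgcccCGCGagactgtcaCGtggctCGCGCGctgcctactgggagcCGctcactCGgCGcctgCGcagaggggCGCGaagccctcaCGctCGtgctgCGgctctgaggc
Sycp1: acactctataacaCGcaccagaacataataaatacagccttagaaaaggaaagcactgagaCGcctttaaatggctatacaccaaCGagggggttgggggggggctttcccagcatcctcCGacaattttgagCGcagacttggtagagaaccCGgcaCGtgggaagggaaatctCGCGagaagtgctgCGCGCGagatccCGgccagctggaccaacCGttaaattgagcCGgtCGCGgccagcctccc
Sycp3: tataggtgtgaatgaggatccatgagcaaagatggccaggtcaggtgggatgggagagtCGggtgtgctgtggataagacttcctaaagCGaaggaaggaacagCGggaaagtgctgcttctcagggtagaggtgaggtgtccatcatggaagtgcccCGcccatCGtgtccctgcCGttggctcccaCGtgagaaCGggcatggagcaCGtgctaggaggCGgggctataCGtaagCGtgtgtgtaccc

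All 10 genes have a promoter in the RefSeq table, and each holds more CpG than the median of 6 over 32851 promoters of 27025 genes. The number of CpG in the 250 bases was 18 for Slc25a31, 13 for Syce1, 20 for Tex12, 26 for Stag3, 10 for Rec8, 31 for Ddx4, 20 for Dazl, 17 for Sycp1, 12 for Sycp3 and 18 for Mael. Between 62.2% (Rec8) and 94.8% (Ddx4) of all promoters hold fewer. The genes that stayed dim on all arrays, with 12 to 20 CpG, lie within the range of 10 to 31 of the others, and Dazl and Tex12 have the same number. The upper quartile of all promoters is 16 CpG, and the median of the 77 other germline genes with a promoter is 12. For Stag3, Ddx4 and Rec8 the start in the table lies inside the longest annotated span of the gene. Their windows thus belong to an internal start. Slc25a31, Syce1 and Tex12 alone span 13 to 20 CpG, and Sycp3 with 12 lies just under that range.

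**Figure D1:**
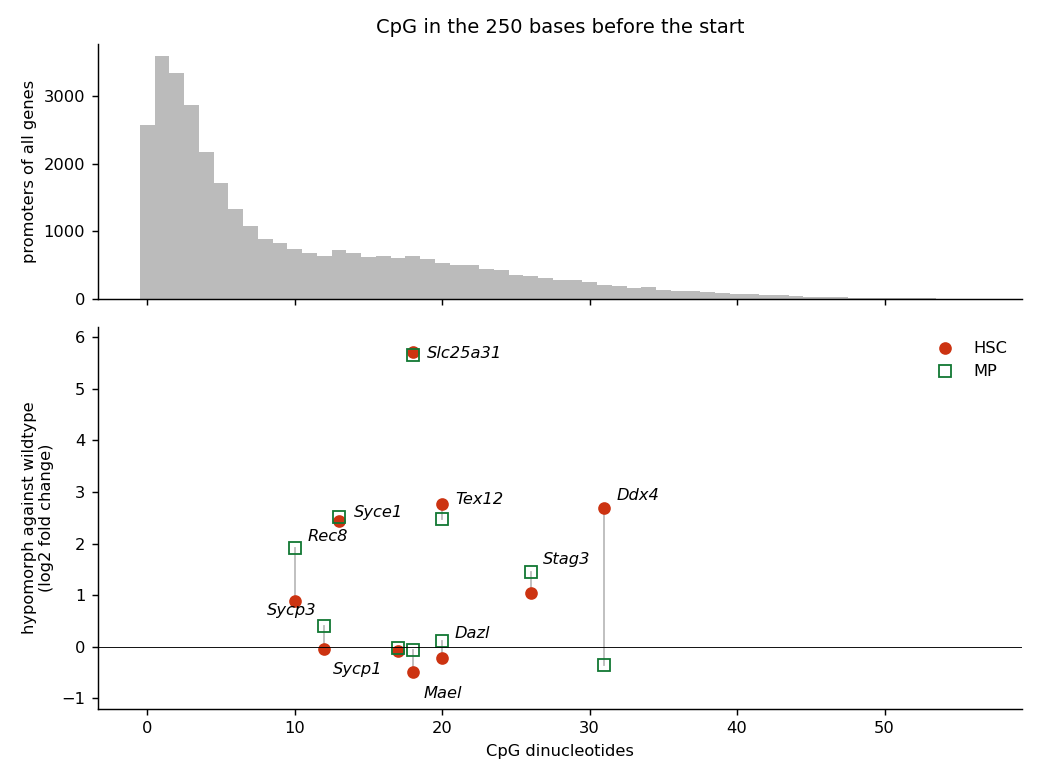
CpG dinucleotides in the 250 bases before the RefSeq start. The upper panel counts all 32851 promoters by their number of CpG; the lower panel sets the number for each of the 10 genes against its log2 difference between hypomorph and wildtype in HSC (filled circles) and in MP (open squares), with a line joining both values of a gene. Genes near 0, such as Dazl with 20 CpG, and genes far above it, such as Tex12 with 20 CpG, share the same range of CpG.

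The E-box CACGTG, which reads the same on both strands, is in 7 of the 10 windows and in 6.02% of all promoters (9.37% of the 12417 promoters with at least as many CpG as Rec8). It begins 93 bases before the start in Slc25a31 and in Tex12, 94 in Sycp1, 170 in Stag3, 29 in Ddx4, 223 in Mael, and 64 and 43 in Sycp3. The E2F motif GCGGGAA, or TTCCCGC on the other strand, is in Tex12 (145 bases before the start), Ddx4 (136) and Sycp3 (147), against 3.82% of all promoters and 8.27% of those with as many CpG. It shares no base with the E-box in any of these windows. Both motifs together stand in those 3 genes, against 0.338% of all promoters and 0.797% of those with as many CpG. Of the 77 other germline genes, 14 have the E-box, 8 the E2F motif and 1, Hormad1, both. The 3 genes with both motifs include 1 that was higher in both hypomorph populations (Tex12), 1 that was higher in HSC (Ddx4) and 1 that stayed dim (Sycp3). A match is a description of the letters, not of a bound site.

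On the wildtype arrays 8 of the 10 genes were dim throughout, the exceptions being Rec8 and Stag3. The mean over the 10 genes was 3.66 and 3.72 on the wildtype HSC arrays, 3.47 to 3.59 on wildtype MP arrays, and 3.21 and 3.37 on B progenitor arrays. It was 4.89 to 5.30 on hypomorph HSC arrays and 4.80 to 5.12 on hypomorph MP arrays. Hypomorph and wildtype arrays thus did not overlap, as follows from the choice of the genes. In limma, with adjustment over all 34958 probe sets, 5 of the 10 genes were called higher in hypomorph HSC, beside 2.98% of all genes called higher. In hypomorph MP 5 of 10 were called higher, beside 0.187% of all genes. The 4 genes called higher in both were Slc25a31, Syce1, Tex12 and Stag3, out of 16 such genes (0.0879%) on the array, and 0 of the 10 were called lower in either, beside 3.33% of all genes in HSC and 0.104% in MP. All arrays of the hypomorph lay above all arrays of the wildtype for 6 of the 10 genes in HSC, beside 10.9% of all genes, and for 5 in MP, beside 11.8%. The reverse held for 2 in HSC, beside 22.4% of all genes, and 0 in MP, beside 11.9%. These contrasts chose the genes, and nothing is read from their share. The comparisons in HSC and in MP share no arrays.

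**Figure D2:**
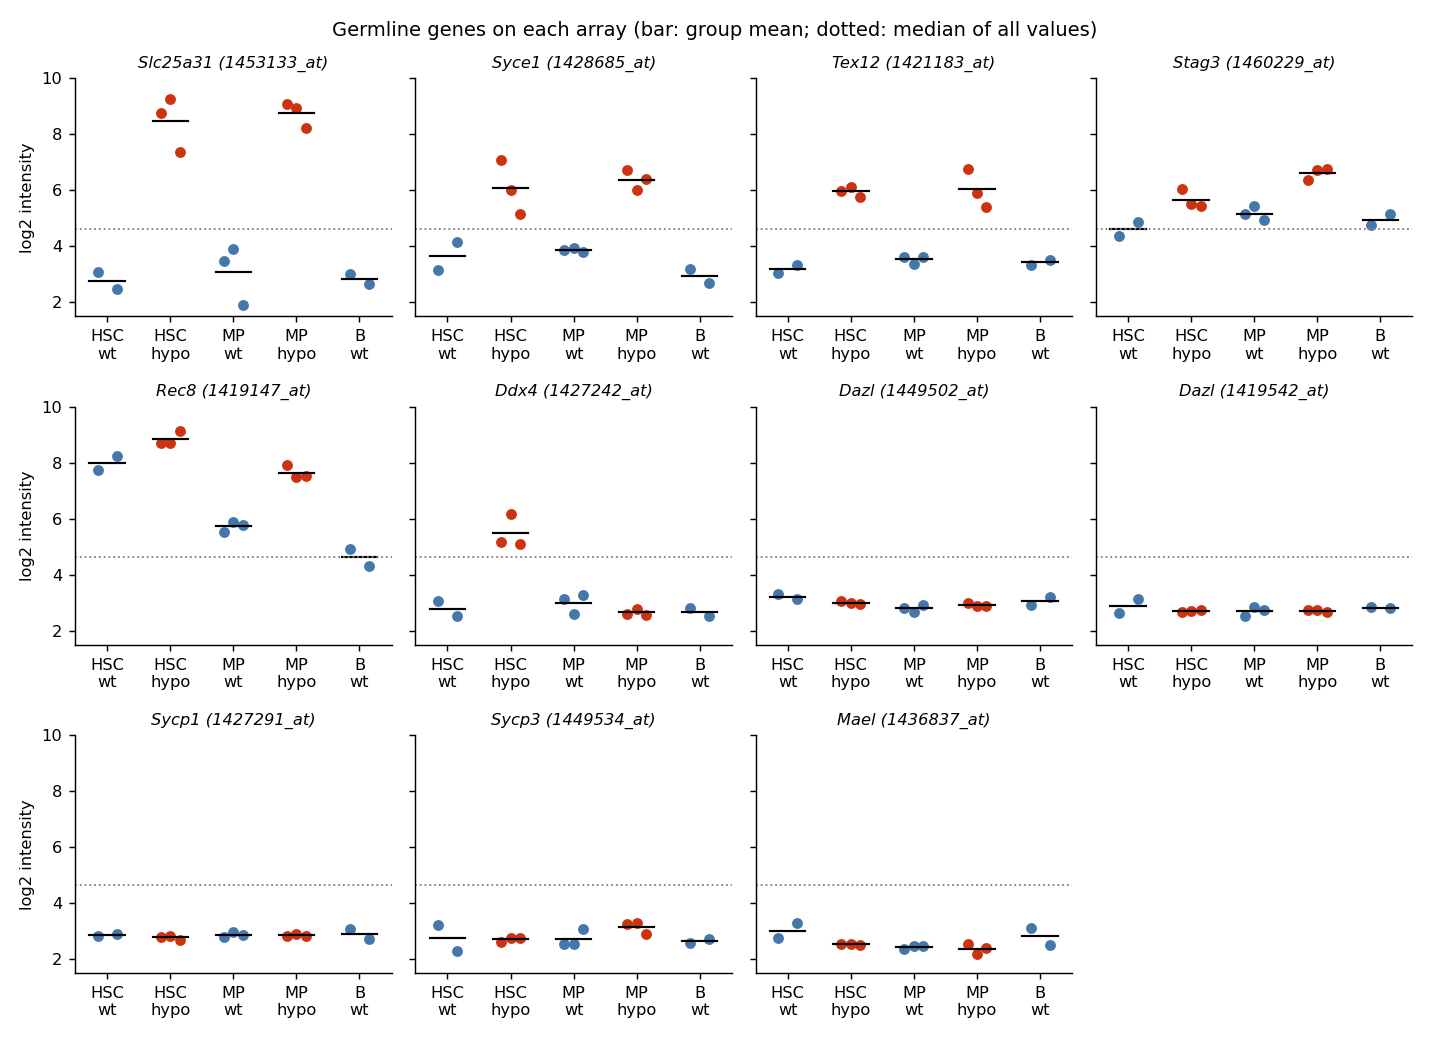
Log2 intensity of each germline gene on each of the 13 arrays, by group (wt, wildtype; hypo, hypomorph; points are arrays, bars are group means, and the dotted line is the median of all values, 4.64). Slc25a31, Syce1 and Tex12 are high on all 6 hypomorph arrays, Ddx4 on the 3 hypomorph HSC arrays, and Dazl, Sycp1, Sycp3 and Mael lie under the dotted line on all arrays.

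The synaptonemal complex was represented by Syce1 and Tex12, of its central element, and by Sycp1 and Sycp3, of its transverse filaments and lateral elements. Tex12 (chromosome 9, 50557148 to 50561268, GRCm38.p6; probe set 1421183_at) read 3.06 and 3.34 in wildtype HSC, against 5.995, 6.14 and 5.77 in hypomorph HSC. In MP it read 3.64, 3.39 and 3.63 in the wildtype and 6.77, 5.91 and 5.43 in the hypomorph, and in B progenitors 3.36 and 3.53. No wildtype array exceeded 3.64 and no hypomorph array lay under 5.43, so the genotypes did not overlap in either cell type. The difference on the log2 scale was 2.76 (SE 0.30, 6.80-fold) in HSC and 2.48 (SE 0.27, 5.60-fold) in MP. The HSC difference exceeded the MP difference by 0.28 (SE 0.41; 95% interval -0.61 to 1.17).

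Syce1 (chromosome 7, 140777229 to 140787854; 1428685_at), whose protein sits with Tex12 in the central element, read 3.15 and 4.17 in wildtype HSC. It read 7.08, 6.02 and 5.16 in hypomorph HSC. In MP the wildtype arrays gave 3.86, 3.94 and 3.81 and the hypomorph arrays 6.74, 6.01 and 6.40. The B progenitor arrays gave 3.20 and 2.71, and no hypomorph array fell into the range of the wildtype. The log2 difference was 2.43 (SE 0.46, 5.38-fold) in HSC and 2.51 (SE 0.41, 5.69-fold) in MP, with -0.08 (SE 0.61; 95% interval -1.42 to 1.26) between them. The call was lost in HSC without wildtype replicate 1, where the difference was 1.92. In MP it was lost in several fits, among them those without any 1 of the 6 MP arrays, with differences between 2.33 and 2.69. The second normalization (2.59) and the replicate number as a block (2.51) were others.

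Sycp1 and Sycp3 stayed dim. Sycp1 (chromosome 3, 102818499 to 102936100; 1427291_at), which forms the transverse filaments, ran from 2.70 to 3.08 over all 13 arrays. Its log2 difference was -0.09 (SE 0.15) in HSC and -0.03 (SE 0.13) in MP, and centring the arrays on their medians turned the HSC value to 0.01. Sycp3 (chromosome 10, 88459587 to 88473236; 1449534_at), of the lateral elements, ran from 2.29 to 3.29. It read 3.24 and 2.29 in wildtype HSC, 2.62, 2.77 and 2.77 in hypomorph HSC, 2.56, 2.55 and 3.10 in wildtype MP, and 3.25, 3.29 and 2.89 in hypomorph MP. Both genotypes overlapped in both cell types, and the log2 difference was -0.05 (SE 0.26; 95% interval -0.62 to 0.53) in HSC and 0.41 (SE 0.24; 95% interval -0.11 to 0.92) in MP.

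The genes of meiotic cohesin, Stag3 and Rec8, were each dim on 1 of the 7 wildtype arrays. Stag3 (chromosome 5, 138272514 to 138312397; 1460229_at), the meiotic counterpart of Stag1 and Stag2, read 4.38 and 4.86 in wildtype HSC and 6.04, 5.51 and 5.44 in hypomorph HSC. It read 5.16, 5.44 and 4.93 in wildtype MP, 6.38, 6.73 and 6.78 in hypomorph MP, and 4.76 and 5.16 in B progenitors. Each hypomorph group lay above the wildtype of its own cell type, but the highest wildtype MP array had the same value as the lowest hypomorph HSC array. The log2 difference was 1.05 (SE 0.24, 2.06-fold) in HSC and 1.46 (SE 0.22, 2.74-fold) in MP, with -0.41 (SE 0.33; 95% interval -1.13 to 0.31) between them. In HSC the call was lost without hypomorph replicate 1 (0.86), hypomorph replicate 2 (1.12), wildtype replicate 1 (0.81) or wildtype replicate 2 (1.28). In MP it was lost without hypomorph replicate 2 (1.41), hypomorph replicate 3 (1.38), wildtype replicate 1 (1.45) or wildtype replicate 3 (1.33).

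Rec8 (chromosome 14, 55618002 to 55625395; 1419147_at), the kleisin subunit of meiotic cohesin, had a cell type pattern of its own in the wildtype. It read 7.73 and 8.23 in wildtype HSC, 5.52, 5.90 and 5.80 in wildtype MP, and 4.93 and 4.32 in B progenitors. The 3 wildtype cell types did not overlap, and the order was HSC, MP, B progenitors. Such separation downward was seen for 33.5% of all genes between HSC and MP, 38.6% between HSC and B progenitors, and 28.5% between MP and B progenitors. Rec8 was lower in MP than in HSC by a log2 difference of -2.24 (SE 0.24, limma adjusted p = 9.16e-05) and lower in B progenitors than in HSC by -3.35 (SE 0.27, limma adjusted p = 2.24e-06). In these comparisons 12.8% and 21.4% of all genes were called lower, and Rec8 was the 1 gene of the 10 called in either. B progenitors were lower than MP by -1.11 (SE 0.24, limma adjusted p = 0.00536), beside 16.5% of all genes called lower, and this call was lost without B progenitor replicate 2 (-0.81, limma adjusted p = 0.0646).

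With low Dnmt1, Rec8 read 8.72, 8.72 and 9.16 in HSC and 7.92, 7.50 and 7.53 in MP. Each hypomorph group lay above its wildtype with no overlap, and 1 of the 3 hypomorph MP arrays (7.92) lay within the range of wildtype HSC. The log2 difference was 1.91 (SE 0.22, 3.76-fold) in MP and 0.88 (SE 0.24, 1.84-fold) in HSC, where it was not called. The HSC difference was smaller by 1.03 (log2 difference of effects -1.03, SE 0.33; 95% interval -1.74 to -0.32). The HSC difference passed the threshold of the call in the second normalization (0.93), after centring (0.98), under both intensity filters and with the mean of the probe sets of a gene.

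Ddx4, Dazl and Mael stand for the RNA machinery of the germ cell. Ddx4 (chromosome 13, 112598333 to 112652633; 1427242_at), the Vasa helicase of germ granules, read 3.06 and 2.52 in wildtype HSC and 5.17, 6.19 and 5.10 in hypomorph HSC. In MP it read 3.15, 2.60 and 3.29 in the wildtype and 2.62, 2.80 and 2.57 in the hypomorph, and in B progenitors 2.80 and 2.54. The 3 hypomorph HSC arrays stood above the other 10, and the genotypes overlapped in MP. The log2 difference was 2.70 (SE 0.32, 6.48-fold) in HSC and -0.35 (SE 0.28; 95% interval -0.97 to 0.27) in MP. The HSC effect exceeded the MP effect by 3.05 (SE 0.43; 95% interval 2.12 to 3.98). Ddx4 was the 1 gene of the 10 with a called difference of effects, beside 2.61% of all genes. That call describes the choice and carries no test. The call of Ddx4 in HSC was lost when the fit held the HSC arrays alone.

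Dazl (chromosome 17, 50279393 to 50293620), an RNA-binding regulator of translation, was dim with both probe sets. The probe set 1449502_at read 3.31 and 3.14 in wildtype HSC, 3.07, 3.01 and 2.96 in hypomorph HSC, 2.83, 2.69 and 2.91 in wildtype MP, and 3.01, 2.87 and 2.88 in hypomorph MP. Hypomorph HSC lay just under wildtype HSC, by -0.22 (SE 0.15), and in MP the genotypes overlapped, with 0.11 (SE 0.13). The other probe set, 1419542_at, ran from 2.54 to 3.14, with a log2 difference of -0.18 (SE 0.17) in HSC and 0.01 (SE 0.15) in MP. Mael (chromosome 1, 166201385 to 166238744; 1436837_at), which acts in the silencing of transposons, ran from 2.21 to 3.29. It read 2.76 and 3.29 in wildtype HSC and 2.55, 2.55 and 2.51 in hypomorph HSC, a log2 difference of -0.48 (SE 0.20), and in MP the difference was -0.05 (SE 0.18). For Mael and for Dazl with 1449502_at, all hypomorph HSC arrays lay under the wildtype HSC arrays, as they did for 22.4% of all genes.

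Slc25a31 (chromosome 3, 40708871 to 40726094; 1453133_at), the testis form of the ADP/ATP carriers, was chosen on these contrasts and stands at place 1 of 18194 genes by size of the rise in both. It read 3.07 and 2.47 in wildtype HSC and 8.78, 9.26 and 7.38 in hypomorph HSC. In MP it read 3.47, 3.91 and 1.93 in the wildtype and 9.08, 8.93 and 8.25 in the hypomorph. The B progenitor arrays gave 3.01 and 2.65, so all 7 wildtype arrays were dim, as were those of Syce1, Tex12 and Ddx4, and all 6 hypomorph arrays lay above 7.10, the upper quartile of all values. The log2 difference was 5.70 (SE 0.59, 52.2-fold) in HSC and 5.65 (SE 0.53, 50.2-fold) in MP. Between the cell types it differed by 0.06 (SE 0.79; 95% interval -1.67 to 1.78). For these 4 genes a fold is the ratio of the deposited values only, since it is not known whether the wildtype values lay above background. With the HSC arrays alone in the fit, the HSC calls of Slc25a31, Syce1, Stag3 and Ddx4 were lost, at the same differences. By size of the rise, Tex12 stood at place 36, Ddx4 at 43, Syce1 at 65, Stag3 at 688 and Rec8 at 933 in HSC. In MP Syce1 stood at place 6, Tex12 at 8, Rec8 at 23 and Stag3 at 42.

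**Figure D3:**
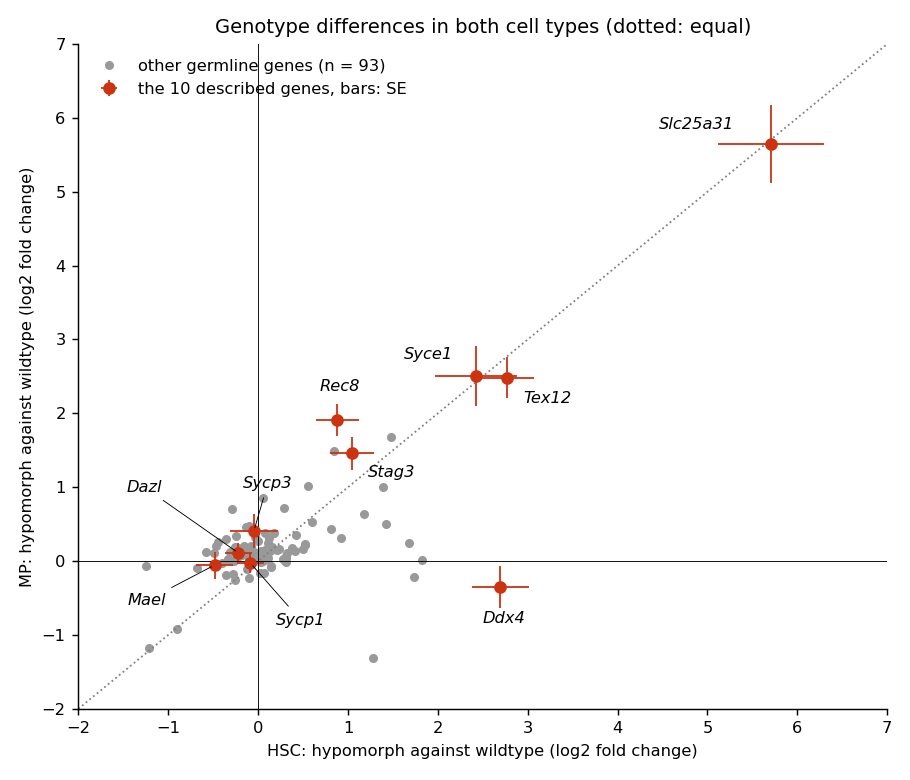
Log2 difference between hypomorph and wildtype in HSC (horizontal axis) and MP (vertical axis) for the 10 described genes (red, bars are SE) and 93 other germline genes (grey). Slc25a31, Syce1 and Tex12 lie near the dotted line of equal differences, Ddx4 lies at 2.70 in HSC and -0.35 in MP, and Dazl, Sycp1, Sycp3 and Mael lie near 0 on both axes.

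Apart from Rec8, the wildtype cell types did not differ in these genes by a called amount. Between wildtype MP and HSC, 1 of 10 genes was called, beside 21.6% of all genes, and the same held for B progenitors against HSC (31.6%) and against MP (24.6%). Mael was lower in MP than in HSC by -0.58 (SE 0.20, limma adjusted p = 0.0706), and Dazl by -0.41 (SE 0.15, limma adjusted p = 0.0786). Stag3 was higher in MP by 0.56 (SE 0.24, limma adjusted p = 0.143). Under other settings these 3 could pass the threshold. Mael passed in the second normalization (-0.57, limma adjusted p = 0.0450), with a trended robust prior (limma adjusted p = 0.0323) and with the mean of the probe sets of a gene (limma adjusted p = 0.0444). It also passed without HSC wildtype replicate 1 (-0.85, limma adjusted p = 0.0317) or without either B progenitor array (-0.58, limma adjusted p = 0.0397). Stag3 passed in the second normalization (0.65, limma adjusted p = 0.0411), and Dazl with the trended robust prior (limma adjusted p = 0.0378). Syce1 was lower in B progenitors than in MP by -0.92 (SE 0.46, limma adjusted p = 0.193). For Slc25a31, Tex12 and Ddx4 these differences lay between -0.34 and 0.35, and their SE were 0.30 or more.

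For the genes called in both cell types, the genes with the most similar 5 group means, each centred on its own average, were ranked by the root mean square difference over the 5 groups. Nearest to Slc25a31 were Cryab, a small heat shock protein gene (1.33), Cma1, a mast cell protease gene (1.40), and Syce1 (1.48). Nearest to Syce1 were Cryab (0.21), the ribosomal protein paralog Rpl39l (0.33) and Tex12 (0.34). Nearest to Tex12 were Slc4a1, the anion exchanger of red cells (0.30), Syce1 (0.34) and Cryab (0.40). These group means include the differences that chose the genes, so the ranking is a description and supports nothing further. Nearest to Stag3 were Pilrb1 (0.20), Gm15972 (0.20) and H3c4 (0.21).

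Of 112 further germline genes listed by role, 93 were measured, and 48 of these were dim on all wildtype arrays and 41 on all 13 arrays. In hypomorph HSC 4 of the 93 rose and 1 fell, with a median log2 difference of 0.03 against -0.10 over all genes, where 6.3% were called, 2.98% higher and 3.33% lower. The 5 called of 93 are near that background and are no result about the lists, and the counts for single lists below are to be read beside these shares. In hypomorph MP 0 of 93 passed limma's threshold, beside 0.291% of all genes. At an unadjusted p under 0.05, 9 of the 93 differed in MP, 7 of them higher, with no share of all genes beside this count. With array weights 7 of the 93 were called, beside 2292 of all 18194 genes, and this is no result about the lists. The median of the 93 in MP was 0.13, against 0.04 over all genes, and 73 of the 93 values were above 0. No share of all genes stands beside that count, and many of the 93 were dim on all arrays. Array medians were 4.62 to 4.66 in hypomorph and 4.56 to 4.61 in wildtype MP, and their part in the count was not tested. The 10 described genes, by their choice, had medians of 0.96 in HSC and 0.93 in MP.

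**Figure D4:**
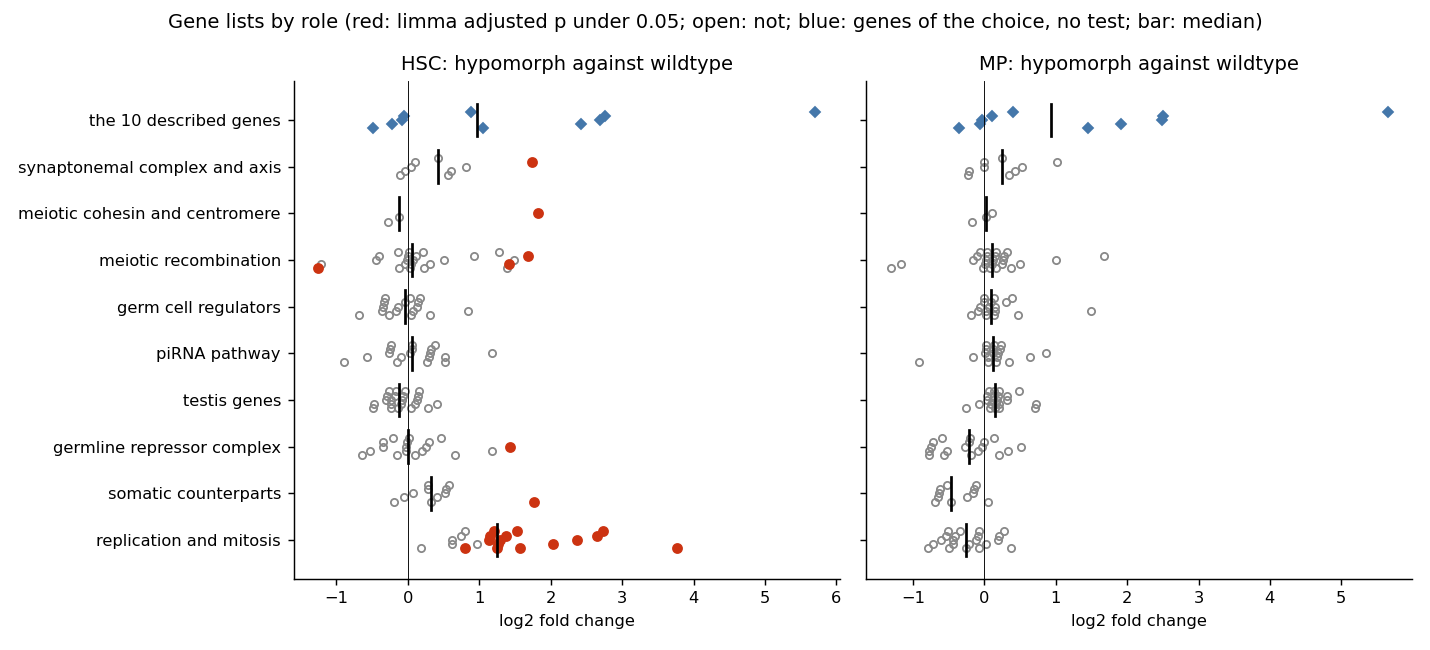
Log2 difference between hypomorph and wildtype for each measured gene of each list, in HSC (left) and MP (right). Red points passed the limma threshold, open points did not, blue diamonds are the 10 described genes, whose calls are not marked because these contrasts chose them, and bars are medians. In HSC the red points gather in the list of replication and mitosis genes, and in MP no gene of the other lists drawn here passed.

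Among 9 other genes of the synaptonemal complex and chromosome axis, 1 rose in HSC and 0 passed in MP, where 1 had an unadjusted p under 0.05. The central element genes Syce2 and Syce3 had differences of 0.81 (SE 0.25, limma adjusted p = 0.0873) and 0.42 (SE 0.24, limma adjusted p = 0.351) in HSC. In MP they had 0.43 (SE 0.23, limma adjusted p = 0.495) and 0.35 (SE 0.21, limma adjusted p = 0.561). Sycp2, of the lateral elements, had -0.04 (SE 0.19, limma adjusted p = 0.943) in HSC and -0.01 (SE 0.17, limma adjusted p = 0.994) in MP. Trip13, an ATPase that acts on axis proteins in meiosis and at the mitotic checkpoint, averaged 10.92 ± 0.11 (SD, n = 3) in hypomorph and 9.19 ± 0.54 (SD, n = 2) in wildtype HSC, a log2 difference of 1.73 (SE 0.22, limma adjusted p = 0.00135). Among 3 genes of meiotic cohesin and centromere, Sgo2a, a protector of centromeric cohesin, rose by 1.82 (SE 0.30, limma adjusted p = 0.00547). Of 24 recombination genes 2 rose and 1 fell. Psmc3ip rose by 1.42 (SE 0.22, limma adjusted p = 0.00384) and its partner Mnd1 by 1.68 (SE 0.41, limma adjusted p = 0.0367). Spo11, which makes the breaks that start meiotic recombination, fell by 1.25 on the log2 scale (SE 0.33, limma adjusted p = 0.0486). Without HSC wildtype replicate 2 neither Mnd1 (1.12, limma adjusted p = 0.301) nor Spo11 (-0.83, limma adjusted p = 0.350) was called. The Mnd1 call was also lost without HSC hypomorph replicate 1 or 2, MP hypomorph replicate 1 or 3, or MP wildtype replicate 1 or 3. The Spo11 call was also lost when any array but HSC hypomorph replicate 1 or HSC wildtype replicate 1 was left out.

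Genes of the cell cycle were also higher in hypomorph HSC. Of 21 genes of replication and mitosis, 15 rose and 0 fell in hypomorph HSC, with a median of 1.25, and the list averaged 8.77 and 8.80 on wildtype and 10.08 to 10.35 on hypomorph HSC arrays. In MP 0 of 21 passed and the median was -0.25, with 3 at an unadjusted p under 0.05. Myeloid markers also averaged higher in hypomorph HSC, 8.25 to 8.69 against 7.06 and 7.47, with 4 of 10 called higher. Stem cell markers averaged lower there, 9.15 to 9.19 against 9.53 and 9.70, with 3 of 10 called lower and 2 higher. They also averaged lower in hypomorph MP, 6.48 to 6.80 against 6.83 to 7.12, with 1 of 10 called lower and 1 higher. Their median log2 difference was -0.27 in HSC and -0.54 in MP. In MP, macrophage and stroma markers averaged 5.23 to 5.42 in the hypomorph and 4.76 to 4.95 in the wildtype, with 1 of 7 called higher. The part of any of these in the results was not tested. The germline genes called in HSC were also compared between wildtype MP and wildtype HSC. Both contrasts use the same wildtype HSC arrays, so a same direction is favoured in advance and supports nothing further. In this comparison 8.77% of all genes were called higher in MP and 12.8% lower. Trip13 (1.83), Sgo2a (2.40), Psmc3ip (1.33) and Mnd1 (1.44) were higher in MP (limma adjusted p = 1.87e-04, 2.29e-04, 0.00151 and 0.0310). Spo11 was lower (-3.06, limma adjusted p = 8.68e-05). That call of Mnd1 was lost without HSC wildtype replicate 2 (0.89, limma adjusted p = 0.271) or without any wildtype MP array (1.39 to 1.49).

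In MP the germline genes with the smallest p of their lists did not reach the threshold. Rec114, a recombination gene, had a log2 difference of 1.68 (SE 0.38, limma adjusted p = 0.146), and Tex14, needed for the bridges between germ cells, had 1.49 (SE 0.35, limma adjusted p = 0.169). The value for 4930447C04Rik, the synaptonemal complex gene Six6os1, was 1.02 (SE 0.33, limma adjusted p = 0.311), beside 0.56 (SE 0.37, limma adjusted p = 0.450) in HSC. That for Gtsf1, of the piRNA pathway, was 0.86 (SE 0.25, limma adjusted p = 0.271), and that for Ldhc, the testis lactate dehydrogenase, 0.72 (SE 0.25, limma adjusted p = 0.330). With array weights, which called 2292 of all 18194 genes in MP, Rec114, Tex14, 4930447C04Rik and Gtsf1 passed the threshold. None of 17 germ cell regulators, 18 piRNA genes or 22 testis genes passed it in HSC, where 2, 4 and 1 of them had an unadjusted p under 0.05.

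Genes of the E2F6 repressor complex and its partners were measured with 18 members. In HSC 1 was called: Cbx1, a heterochromatin protein, with 1.42 (SE 0.36, limma adjusted p = 0.0403), while the mean of its 5 probe sets gave 0.38 (limma adjusted p = 0.169). The call was also lost without HSC hypomorph replicate 2 or 3, HSC wildtype replicate 2, or any MP or B progenitor array (limma adjusted p up to 0.317). E2f6 itself differed by 0.02 (SE 0.29, limma adjusted p = 0.986) in HSC and -0.77 (SE 0.26, limma adjusted p = 0.322) in MP, where 0 of 18 passed and 3 had an unadjusted p under 0.05. Of 11 somatic counterparts of the germline genes, Rad21, the mitotic counterpart of Rec8, rose in HSC by 1.77 (SE 0.27, limma adjusted p = 0.00352). Slc25a4 and Slc25a5, the carriers of somatic cells, had differences of 0.53 (limma adjusted p = 0.176) and 0.52 (limma adjusted p = 0.159) in HSC and -0.15 (limma adjusted p = 0.802) and -0.16 (limma adjusted p = 0.760) in MP.

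The genes on either side along the chromosome were examined as well. The nearest measured protein-coding neighbours without overlap, 20 genes at distances of 0.005 to 215 kb, included 2 called in HSC, beside 6.3% of all genes, and 3 had an unadjusted p under 0.05 there. Gnptab, 12.3 kb from Sycp3, was higher by 1.72 (SE 0.42, limma adjusted p = 0.0361), and Zfp157, 129 kb from Stag3, lower by -1.01 (SE 0.25, limma adjusted p = 0.0398). In MP 0 of 20 passed, beside 0.291% of all genes, and 3 had an unadjusted p under 0.05. Beside Slc25a31, Intu at 4.09 kb had differences of -0.46 (SE 0.27) in HSC and -0.91 (SE 0.24) in MP, and Hspa4l at 18.4 kb of -0.13 (SE 0.33) and -0.62 (SE 0.29). Beside Tex12, Bco2 at 1.93 kb had -0.19 (SE 0.40) and 0.43 (SE 0.35), and beside Ddx4, Slc38a9 at 3.56 kb had -0.44 (SE 0.25) and -0.18 (SE 0.23). The other neighbour of Ddx4, Il31ra at 17.6 kb, had 0.59 (SE 0.24, limma adjusted p = 0.19) in HSC and -0.41 (SE 0.22) in MP. No neighbour of Slc25a31, Syce1, Tex12, Rec8 or Ddx4 passed the threshold in either cell type.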

How the data were processed

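The deposited values are log2 intensities. Per the submitters' processing notes the authors computed them with RMA, with no version stated. Per the labels' protocols, the input of an array was 35000 to 100000 sorted cells, whose RNA was extracted with a micro kit and biotin-labelled by a protocol for small samples. Base 2 is read from the range of the values, and each fold change rests on it. The authors deposited 13 arrays in one normalization, used throughout, and the 11 HSC and MP arrays again in a second normalization, used as an alternative only. Columns with the same label in both correlated at 0.999 and were never counted as further replicates; 0 columns were unused.

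Of 45101 probe sets, 34958 name 1 gene by the platform annotation, 932 several and 9211 none; those with 1 were used, without an intensity filter. An Entrez identifier gave the current symbol of 34754, with 0 changes. A gene counts through its probe set with the highest mean. A limma 3.58.1 model (R 4.3.3) with 1 mean for each of the 5 groups and 8 residual degrees of freedom gave moderated tests, adjusted by Benjamini and Hochberg over all 34958 probe sets in each comparison, with a threshold of 0.05. Intervals are 95% intervals of that model, SD are those of the arrays, and the number of arrays limits the precision. The calling was tested on simulated data.

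The genes and the lists were chosen with earlier results of these data known. All 10 genes are named with every probe set; of each other list up to 2 called genes with the largest change are named in each genotype comparison, or that with the smallest p if there was none, and other genes are named where a count or neighbour called for it, after their values were seen. Promoters and positions are from RefSeq (GRCm38.p6), matched by symbol, with Python 3.11.15 and pandas 2.3.3. Alternatives were the second normalization, a block for the replicate number, a fit of the compared arrays alone, a trended robust prior, array weights, filters at the median (4.64) or the 75th percentile (7.10) on at least 2 arrays, the mean of a gene's probe sets, centring, and leaving out each array.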

Additional observations from a re-analysis of the deposited data

Results flagged for a closer look

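By the contrast of both effects in the limma model, the genotype effect differed between HSC and MP for 3 germline genes. These were 1 of the 10 described genes and 2 of the 93 others. For Ddx4 the HSC effect exceeded the MP effect by 3.05 on the log2 scale (SE 0.43). This gene was chosen for its response, so the value is a description and has no test. All 3 hypomorph HSC arrays lay above both wildtype HSC arrays, and the genotypes overlapped in MP.

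For Trip13 the effects differed by 1.95 (limma adjusted p = 0.00889), and for Sgo2a by 1.81 (limma adjusted p = 0.0419), beside 2.61% of all genes called. These 2 of 93 are near that share and are no result about the lists. Over all alternatives the adjusted p of Trip13 ran from 9.06e-04 to 0.0332. The Sgo2a call was lost with the replicate number as a block (1.84, limma adjusted p = 0.0895). It was also lost without HSC hypomorph replicate 1 (1.64) or 2 (1.79), without either wildtype HSC array (1.49 and 2.12), without any single hypomorph MP array (1.60 to 1.96), and without wildtype MP replicate 1 (1.67) or 3 (1.89). Beside both genes, 10 of 21 replication and mitosis genes had a called difference of effects in the same direction, with a median of 1.54.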

How the results depend on the processing

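Of the 10 genes, the 5 called in HSC became 1 (Tex12) with only the HSC arrays, 2 with the filter at the 75th percentile, which removes dim genes, and 3 to 6 when an array was left out. The 5 called in MP became 2 with that filter and 3 to 5 when an array was left out. The 1 called difference of effects became 2 with array weights and 0 with the filter, which removed Ddx4. Of the 10 genes that filter kept 2, Rec8 and Slc25a31, and both were called in HSC and in MP. Slc25a31 passed it only through its hypomorph arrays. In wildtype MP against HSC, 1 became 3 in the second normalization, 3 with a trended robust prior, 2 with the mean of the probe sets, and 1 to 2 when an array was left out. In B progenitors against MP, 1 became 2 with only the arrays compared and 0 to 1 when an array was left out.

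Of the other germline genes, the 5 called in HSC became 3 with the replicate block, 0 with only the HSC arrays, 8 with the filter at the median, 8 with the mean of the probe sets, and 3 to 6 when an array was left out. The 0 called in MP became 1 with only the MP arrays, 7 with array weights, 1 with the mean of the probe sets, and 0 to 1 when an array was left out. The 2 differences of effects became 1 with the replicate block, 8 with array weights, and 1 to 2 when an array was left out. The filter at the median kept 46 of the 93 genes, and that at the 75th percentile 11. With the latter the 7 in wildtype MP against HSC became 4. The 13 in B progenitors against HSC became 6, and the 11 in B progenitors against MP became 3. With an array left out these ran from 4 to 8, 9 to 15 and 9 to 16.

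Over all genes, the 1147 called in HSC became 660 with the replicate block, 30 with only the HSC arrays, 1807 with array weights, and 449 to 1680 when an array was left out. The 53 in MP became 109 with only the MP arrays, 2292 with array weights, and 23 to 85 when an array was left out. The 474 differences of effects became 185 with the block, 2971 with array weights, 720 with the filter at the median and 759 with the mean of the probe sets. That filter kept 12765 of the 18194 genes. Centring the arrays gave 609 higher of 997 called in HSC, against 542 of 1147. The cause of these shifts was not tested, apart from the genes that a filter removes and the fewer arrays of a smaller fit. Samples sharing a replicate number had deviations that correlated between -0.217 and 0.259. Samples with unlike numbers were not compared, so these values cannot tell whether the number pairs them.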
